A study of Mus musculus with 10 samples.

Results

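Interferon-stimulated genes are the genes that cells switch on when an interferon binds its receptor. The 43 genes described here were listed by symbol (antiviral effectors, interferon regulatory factors and STATs, immunity-related GTPases), and their rows were found in a mouse count table of 55536 genes by Ensembl identifier. All 43 matched a row and all 43 passed the filter on low counts. Measured values were not used to list them, although earlier results of these data were known.

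The libraries came from translating ribosome affinity purification (TRAP), in which ribosomes carrying a tagged large-subunit protein are pulled down and the RNA on them is sequenced. An AAV5 vector carrying the Cre-dependent fusion EGFPL10a under the EF1α promoter (AAV5-EF1α-Flex-EGFPL10a, 400 nl per side) was injected into the primary somatosensory cortex (S1DZ) of Il17rb-Cre, Il17ra-Cre or Il17rc-Cre mice, and tissue was taken 4 weeks later. There were 3 Il17rb-Cre, 3 Il17ra-Cre and 4 Il17rc-Cre libraries, each named here by its group and its replicate number in the sample titles. Each Cre line expresses the tag in cells where the promoter of that interleukin-17 receptor gene drives Cre and where the virus entered, so the captured population differs between groups by design. All 3 groups received the virus and the surgery, and no uninjected, Cre-negative or unbound-fraction library is analysed here. The labels give no age, sex or strain background and do not say whether a library is 1 mouse or a pool, so p-values measure the spread between these libraries.

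Type I interferons (interferon-β and the interferon-α family) bind the receptor made of IFNAR1 and IFNAR2 and activate ISGF3, a complex with STAT2 and IRF9 subunits that binds the interferon-stimulated response element (ISRE). Interferon-γ binds IFNGR1 and IFNGR2 and acts through the gamma-activated sequence (GAS). The programmes share many genes, but IFIT, OAS, MX and ISG15 genes are classical type I targets, whereas IRF1, IRF8 and the immunity-related GTPases of mice respond strongly to interferon-γ. In the brain, astrocytes, microglia, endothelial cells and oligodendrocytes respond to interferons, and neurons respond as well.

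RefSeq promoters of GRCm38.p6 (250 bases before to 50 after a gene start, 300 in all) were available for 32 of the 43 members. The ISRE letters GAAANNGAAA, searched on both strands, were present in 18 of these 32 members (56.2%), against 3.99% of the 27025 genes with a promoter in that table. The GAS letters TTCNNNGAA, which read the same on both strands, were present in 12 of the 32 members (37.5%), against 9.55% of those genes. Ifit3 and Isg15 are shown as the IFIT and ubiquitin-like members with the highest level per kilobase, and Irf1 as the regulator with the largest difference in both Il17rb-Cre comparisons. Capitals mark the letters of a match, and overlapping matches run together.
Ifit3 (chr19:34583279-34583578, plus strand): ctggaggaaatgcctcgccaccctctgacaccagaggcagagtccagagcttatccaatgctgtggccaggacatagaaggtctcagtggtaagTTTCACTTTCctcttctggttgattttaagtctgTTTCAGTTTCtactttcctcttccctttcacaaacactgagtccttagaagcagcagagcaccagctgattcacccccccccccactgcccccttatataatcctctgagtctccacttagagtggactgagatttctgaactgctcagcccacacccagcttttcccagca
Isg15 (chr4:156200769-156201068, minus strand): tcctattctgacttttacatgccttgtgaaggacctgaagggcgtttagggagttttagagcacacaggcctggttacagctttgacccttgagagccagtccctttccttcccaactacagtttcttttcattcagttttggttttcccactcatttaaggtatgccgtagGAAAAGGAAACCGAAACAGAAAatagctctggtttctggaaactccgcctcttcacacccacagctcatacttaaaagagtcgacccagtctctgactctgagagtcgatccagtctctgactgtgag
Irf1 (chr11:53769764-53770063, plus strand): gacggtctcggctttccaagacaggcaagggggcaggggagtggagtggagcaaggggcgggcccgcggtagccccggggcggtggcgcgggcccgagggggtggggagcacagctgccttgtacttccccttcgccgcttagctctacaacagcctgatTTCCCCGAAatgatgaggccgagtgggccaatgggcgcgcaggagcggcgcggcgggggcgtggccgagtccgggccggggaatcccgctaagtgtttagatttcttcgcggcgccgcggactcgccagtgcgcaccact
Ifit3 held 2 ISRE matches, both on the opposite strand, and Isg15 held 3 overlapping ones; neither held a GAS match in this window. The Irf1 promoter shown held 1 GAS match and no ISRE match.

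In 4 immunity-related GTPase genes both kinds of match lay next to each other, with the GAS start 11 bases before the ISRE start. Stretches of 51 bases around the joined matches are shown because this arrangement was found in 5 of the 32851 promoters of the table, the fifth being that of Gm12185, which overlaps Tgtp1 in the annotation.
Igtp (chr11:58199496-58199546, plus strand): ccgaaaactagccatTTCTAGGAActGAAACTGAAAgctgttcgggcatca
Irgm2 (chr11:58214887-58214937, plus strand): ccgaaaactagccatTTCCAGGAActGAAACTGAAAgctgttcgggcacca
Tgtp1 (chr11:48992299-48992349, minus strand): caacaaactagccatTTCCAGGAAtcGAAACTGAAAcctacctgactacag
Tgtp2 (chr11:49064258-49064308, minus strand): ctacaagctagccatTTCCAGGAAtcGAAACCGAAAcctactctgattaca
The arrangement was noticed after the motif search, and the 4 sequences resemble each other beyond the capitals, so they are not independent instances. Among members listed as typical of type I interferon, 7 of 13 promoters held an ISRE match and 2 of 13 held a GAS match. Among those listed as typical of interferon-γ, 5 of 8 held an ISRE match and 6 of 8 held a GAS match. The 4 genes with the similar stretches are in both counts, which therefore do not rest on independent promoters. The others were Irgm1 for the ISRE letters, and Irf1 and Irf8 for the GAS letters. A match is a run of letters and was not tested as a binding site.

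Library totals ranged between 39692925 and 165844244 counts, and 21205 to 24790 genes had at least 1 count. Levels are CPM (read counts relative to the library total, scaled by TMM), and differences are log2 fold changes with their standard error (SE) from edgeR's quasi-likelihood test, with Benjamini-Hochberg adjustment over 20301 genes and a threshold of 0.05. Il17ra-Cre replicate 3, the most deeply sequenced library, stood apart from its group. Its 10 oligodendrocyte markers summed to 5397 CPM, against 45223 and 30934 CPM in Il17ra-Cre replicates 1 and 2, and its 10 excitatory neuron markers summed to 6735 CPM, against 1584 and 1812 CPM there. Il17rc-Cre replicates 1 and 3 differed from replicates 2 and 4, as described below. All members were tested in all 10 libraries. The counts of calls are also given without Il17ra-Cre replicate 3 and without Il17rc-Cre replicates 1 and 3.

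Interferon-stimulated genes were lower in Il17rb-Cre libraries than in both other groups. Summed over the 43 members, the level was 1467, 1117 and 1656 CPM in the Il17rb-Cre libraries, against 27364, 20112 and 14204 CPM in the Il17ra-Cre libraries and 9294, 16821, 12016 and 23329 CPM in the Il17rc-Cre libraries. The highest Il17rb-Cre sum lay far below the lowest sum of either other group. Against Il17ra-Cre, 40 of 43 members were lower in Il17rb-Cre and 0 were higher (edgeR), where 24.1% of all genes tested were lower and 16.2% higher. The members' median log2 fold change was -3.23, beside -0.092 over all genes tested. Against Il17rc-Cre, 43 of 43 members were lower in Il17rb-Cre, where 21.7% of all genes tested were lower and 17.6% higher, and the median was -3.46, beside 0.023 over all genes. Every Il17rb-Cre library lay below every Il17ra-Cre library for 41 members (29.2% of all genes tested) and below every Il17rc-Cre library for 42 members (25.5%). Both comparisons share the Il17rb-Cre libraries, so they are not independent. In bulk RNA, fewer captured cells of a responding type and less of these RNAs per cell cannot be told apart.

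**Figure D1:**
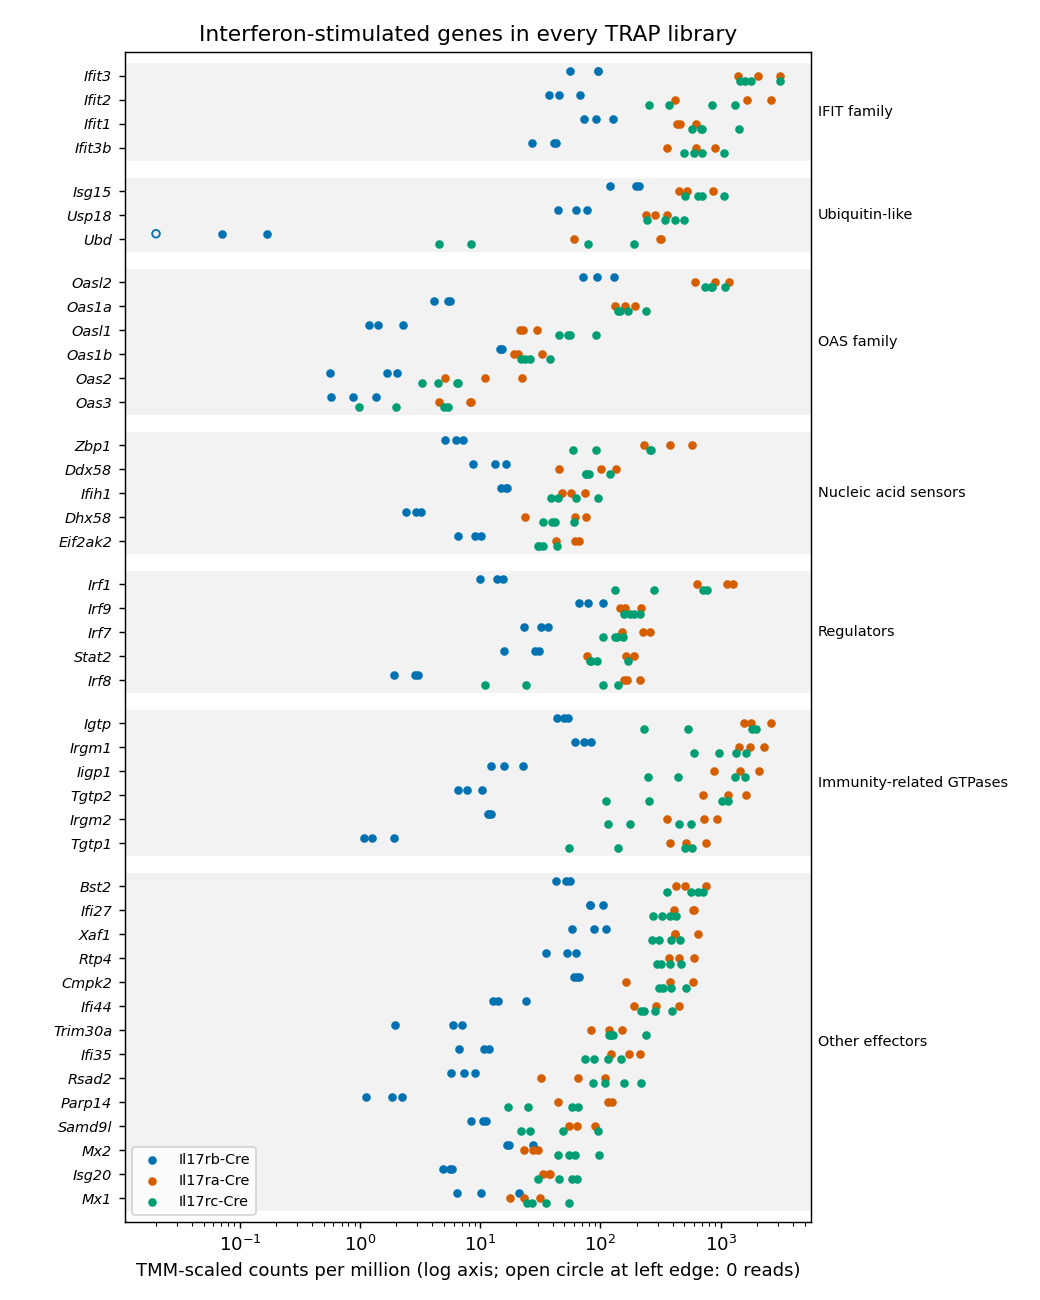
Level of each member in each library, in TMM-scaled CPM on a log axis, grouped by role; each point is 1 library (3 Il17rb-Cre, 3 Il17ra-Cre, 4 Il17rc-Cre), and the open circle is a library with 0 reads. The Il17rb-Cre points lie left of the other groups for most members, with Mx1, Mx2 and Oas1b closest together.

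The members with weak differences were named by their values. Oas1b, an OAS gene annotated as a polymorphic pseudogene because laboratory strains differ in whether it encodes a full protein, had 14.7, 15.2 and 14.8 CPM in the Il17rb-Cre libraries, against 18.95, 20.5 and 32.4 CPM in the Il17ra-Cre libraries and 23.6, 21.9, 25.8 and 37.98 CPM in the Il17rc-Cre libraries. Its log2 fold change was -0.69 ± 0.26 (SE, edgeR adjusted p = 0.0593) against Il17ra-Cre and -0.88 ± 0.25 (SE, edgeR adjusted p = 0.0188) against Il17rc-Cre. Without Il17ra-Cre replicate 1 the Il17ra-Cre contrast of Oas1b passed the threshold (log2 fold change -0.82, edgeR adjusted p = 0.0480), and without Il17rc-Cre replicate 4 as well (-0.69, edgeR adjusted p = 0.0343). Mx1, a dynamin-like antiviral GTPase, had 6.401, 10.1 and 20.8 CPM in the Il17rb-Cre libraries, against 23.2, 31.6 and 17.6 CPM in the Il17ra-Cre libraries and 27.02, 24.5, 34.9 and 54.4 CPM in the Il17rc-Cre libraries. Its log2 fold change was -0.95 ± 0.45 (SE, edgeR adjusted p = 0.116) against Il17ra-Cre, where the libraries overlapped, and -1.498 ± 0.43 (SE, edgeR adjusted p = 0.0202) against Il17rc-Cre. The first of these passed once Il17rb-Cre replicate 3 was dropped (-1.55, edgeR adjusted p = 0.0210). The second missed it once Il17rb-Cre replicate 1 or 2 or Il17rc-Cre replicate 4 was dropped (edgeR adjusted p = 0.0603, 0.0723 and 0.0506). Mx2, its paralog and also annotated as a polymorphic pseudogene, had 16.6, 17.5 and 27.5 CPM in the Il17rb-Cre libraries, against 30.5, 23.3 and 27.7 CPM in the Il17ra-Cre libraries and 55.3, 44.1, 61.7 and 97.1 CPM in the Il17rc-Cre libraries. The Mx2 log2 fold change was -0.401 ± 0.30 (SE, edgeR adjusted p = 0.314) against Il17ra-Cre and -1.65 ± 0.29 (SE, edgeR adjusted p = 0.00164) against Il17rc-Cre.

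The IFIT proteins bind foreign RNA ends and block their translation. All 4 IFIT genes, which lie together on chromosome 19, were lower in Il17rb-Cre in both comparisons. No Il17rb-Cre library reached a library of another group for any of them. Ifit3 had 95.1, 56.02 and 95.2 CPM in the Il17rb-Cre libraries, against 3122, 2050.4 and 1396 CPM in the Il17ra-Cre libraries and 1447, 1598, 1807 and 3113 CPM in the Il17rc-Cre libraries. Ifit3 had a log2 fold change of -4.74 ± 0.43 (SE) against Il17ra-Cre (edgeR adjusted p = 4.42e-05) and -4.600 ± 0.42 against Il17rc-Cre (edgeR adjusted p = 3.36e-05), a 26.7-fold and a 24.2-fold difference. Ifit3 was the member with the highest level per kilobase of exon in Il17ra-Cre and in Il17rc-Cre, and had rank 4 in Il17rb-Cre. Ifit2 had 45.03, 37.04 and 67.1 CPM in the Il17rb-Cre libraries, against 2619, 1658 and 418 CPM in the Il17ra-Cre libraries and 256, 854, 373 and 1322 CPM in the Il17rc-Cre libraries. Its Il17ra-Cre libraries spread 6.27-fold between replicates 1 and 3, and its log2 fold change was -4.98 ± 0.82 (SE) against Il17ra-Cre (edgeR adjusted p = 0.00109) and -3.82 ± 0.75 against Il17rc-Cre (edgeR adjusted p = 0.00304). Ifit1 had 91.8, 72.6 and 127 CPM in the Il17rb-Cre libraries, against 619, 458 and 435 CPM in the Il17ra-Cre libraries and 583, 691, 704 and 1429 CPM in the Il17rc-Cre libraries. This gene was highest in Il17rc-Cre replicate 4, and its log2 fold change was -2.38 ± 0.36 (SE) against Il17ra-Cre (edgeR adjusted p = 0.000729) and -3.13 ± 0.36 against Il17rc-Cre (edgeR adjusted p = 0.000137). Ifit3b had 40.7, 26.96 and 42.998 CPM in the Il17rb-Cre libraries, against 892, 619.9 and 359.8 CPM in the Il17ra-Cre libraries and 601, 496, 699.9 and 1069.9 CPM in the Il17rc-Cre libraries. Ifit3b had a log2 fold change of -4.08 ± 0.41 (SE) against Il17ra-Cre (edgeR adjusted p = 7.61e-05) and -4.28 ± 0.41 against Il17rc-Cre (edgeR adjusted p = 4.29e-05). Of its 50-base transcript words 45% occur in another gene, as do 51.2% of those of Ifit3. Nearly all are shared within this pair, whose counts are therefore uncertain.

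ISG15 is a ubiquitin-like protein conjugated to other proteins, and USP18 removes it and restrains the type I receptor. Isg15 had 196, 119.6 and 209 CPM in the Il17rb-Cre libraries, against 523, 453 and 862 CPM in the Il17ra-Cre libraries and 508, 696, 648 and 1065 CPM in the Il17rc-Cre libraries. Il17rb-Cre lay below both other groups, which overlapped each other, and Isg15 was the member with the highest level per kilobase in Il17rb-Cre, with a log2 fold change of -1.81 ± 0.35 (SE) against Il17ra-Cre (edgeR adjusted p = 0.00252) and -2.06 ± 0.34 against Il17rc-Cre (edgeR adjusted p = 0.00101). Usp18 had 62.1, 44.1 and 77.4 CPM in the Il17rb-Cre libraries, against 356, 284 and 240.4 CPM in the Il17ra-Cre libraries and 346, 245, 415 and 497 CPM in the Il17rc-Cre libraries. Usp18 had a log2 fold change of -2.26 ± 0.30 (SE) against Il17ra-Cre (edgeR adjusted p = 0.000338) and -2.62 ± 0.29 against Il17rc-Cre (edgeR adjusted p = 0.000113). Ubd, which encodes the ubiquitin-like protein FAT10 induced by interferon-γ and tumour necrosis factor, had 0.169, 0 and 0.0715 CPM in the Il17rb-Cre libraries, against 317, 314 and 60.2 CPM in the Il17ra-Cre libraries and 4.57, 189, 8.45 and 78.5 CPM in the Il17rc-Cre libraries. The Il17rb-Cre libraries held 9, 0 and 5 reads of Ubd, against 33882 in the Il17ra-Cre libraries together, so its log2 fold change of -11.59 ± 1.95 (SE) against Il17ra-Cre (edgeR adjusted p = 0.00127) and -9.88 ± 1.85 against Il17rc-Cre (edgeR adjusted p = 0.00226) rests on few reads on its low side. With limma's voom and quality weights the second call of Ubd was lost (limma adjusted p = 0.0747).

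**Figure D2:**
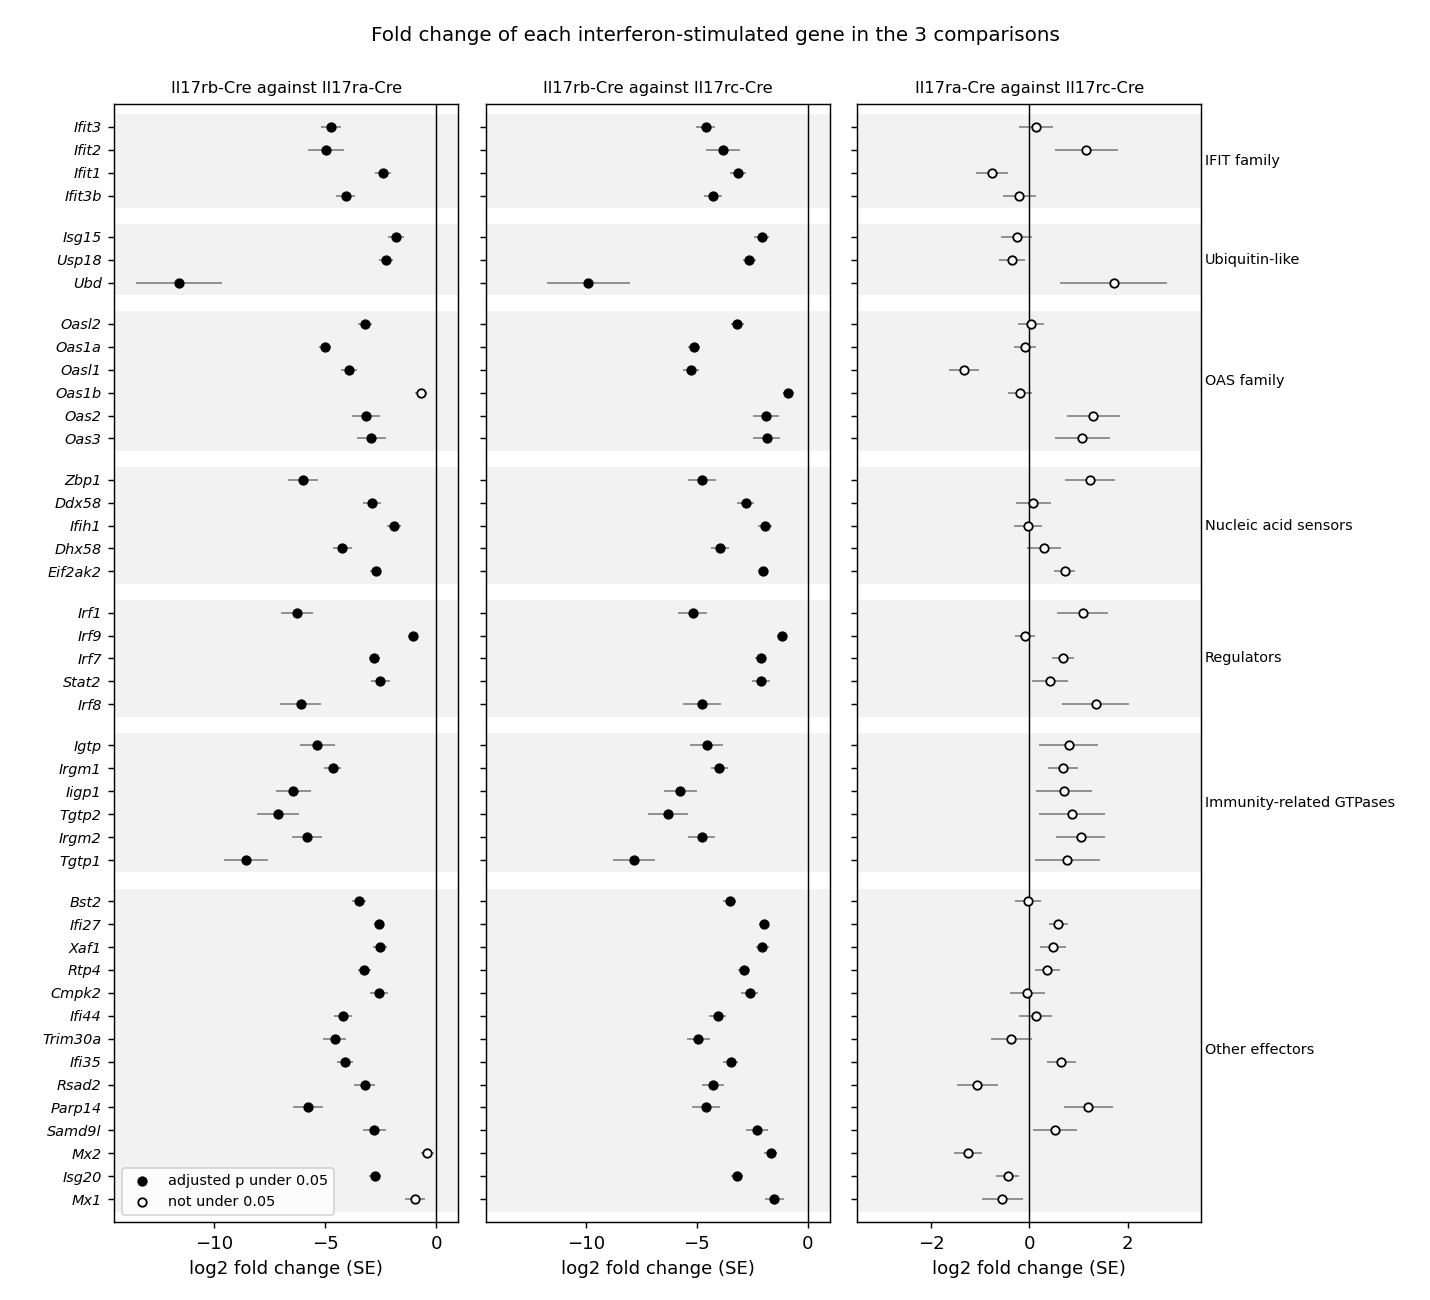
Log2 fold change of each member in the 3 comparisons (points, with SE bars), filled where the edgeR adjusted p was under 0.05; the horizontal scale of the third panel is narrower. In the 2 Il17rb-Cre comparisons 40 and 43 of 43 points are filled and all lie left of 0, and in Il17ra-Cre against Il17rc-Cre none is filled.

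OAS enzymes make 2′-5′-linked oligoadenylates that activate RNase L, and of the OAS-like proteins of mice OASL1 has lost that activity whereas OASL2 keeps it. In this family 5 of 6 genes were lower in Il17rb-Cre than in Il17ra-Cre and 6 of 6 lower than in Il17rc-Cre. Every Il17rb-Cre library lay below all others for each gene but Oas3. Oasl2 had 92.8, 71.2 and 129 CPM in the Il17rb-Cre libraries, against 1176, 906 and 608 CPM in the Il17ra-Cre libraries and 830.0, 739, 854 and 1082 CPM in the Il17rc-Cre libraries. Oasl2 had a log2 fold change of -3.198 ± 0.31 (SE) against Il17ra-Cre (edgeR adjusted p = 5.68e-05) and -3.17 ± 0.30 against Il17rc-Cre (edgeR adjusted p = 3.85e-05). Oas1a had 5.39, 4.12 and 5.56 CPM in the Il17rb-Cre libraries, against 195, 159 and 132 CPM in the Il17ra-Cre libraries and 145, 140.0, 168 and 237 CPM in the Il17rc-Cre libraries. Il17rb-Cre lay far below both other groups, which overlapped each other, and the log2 fold change of Oas1a was -5.01 ± 0.28 (SE) against Il17ra-Cre (edgeR adjusted p = 3.87e-06) and -5.102 ± 0.27 against Il17rc-Cre (edgeR adjusted p = 1.94e-06). Of the 50-base words of Oas1a 57.6% also occur in Oas1g. Oasl1, which in mice restrains translation of Irf7 mRNA, had 2.29, 1.19 and 1.401 CPM in the Il17rb-Cre libraries, against 22.5, 29.9 and 21.4 CPM in the Il17ra-Cre libraries and 55.5, 44.8, 53.8 and 92.1 CPM in the Il17rc-Cre libraries. Oasl1 had a log2 fold change of -3.92 ± 0.35 (SE) against Il17ra-Cre (edgeR adjusted p = 4e-05) and -5.25 ± 0.37 against Il17rc-Cre (edgeR adjusted p = 7.76e-06). Oas2 averaged 1.41 ± 0.757 CPM in Il17rb-Cre, 12.8 ± 8.77 CPM in Il17ra-Cre and 5.18 ± 1.58 CPM in Il17rc-Cre (SD, n = 3, 3 and 4). Oas2 had a log2 fold change of -3.17 ± 0.63 (SE) against Il17ra-Cre (edgeR adjusted p = 0.00306) and -1.87 ± 0.58 against Il17rc-Cre (edgeR adjusted p = 0.0271). The second call was lost without Il17rb-Cre replicate 1 or 3 or Il17rc-Cre replicate 2 or 3 (edgeR adjusted p = 0.0758, 0.0599, 0.0545 and 0.0557). Oas3 averaged 0.932 ± 0.392 CPM in Il17rb-Cre, 7.05 ± 2.17 CPM in Il17ra-Cre and 3.32 ± 2.16 CPM in Il17rc-Cre (SD, n = 3, 3 and 4). Oas3 had a log2 fold change of -2.92 ± 0.66 (SE) against Il17ra-Cre (edgeR adjusted p = 0.00596) and -1.84 ± 0.61 against Il17rc-Cre (edgeR adjusted p = 0.0365), and in the second comparison its libraries overlapped. That Oas3 call was lost without Il17rb-Cre replicate 2 or 3 or Il17rc-Cre replicate 2 or 4 (edgeR adjusted p = 0.115, 0.0950, 0.0848 and 0.0826) and under both replicate blocks (0.167 and 0.0936).

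Sensors of foreign or misplaced nucleic acid were all lower in Il17rb-Cre, 5 of 5 in each comparison. No Il17rb-Cre library overlapped another group for any of them. Zbp1, which binds left-handed nucleic acid and can trigger cell death, had 7.17, 5.11 and 6.25 CPM in the Il17rb-Cre libraries, against 578, 380.3 and 231 CPM in the Il17ra-Cre libraries and 58.8, 257, 92.7 and 265 CPM in the Il17rc-Cre libraries. Zbp1 had a log2 fold change of -6.004 ± 0.67 (SE) against Il17ra-Cre (edgeR adjusted p = 0.000133) and -4.77 ± 0.62 against Il17rc-Cre (edgeR adjusted p = 0.000287). Ddx58, which encodes RIG-I, a sensor of RNA ends, had 8.67, 13.2 and 16.5 CPM in the Il17rb-Cre libraries, against 135, 102 and 44.9 CPM in the Il17ra-Cre libraries and 76.5, 76.4, 80.9 and 121 CPM in the Il17rc-Cre libraries. Ddx58 had a log2 fold change of -2.88 ± 0.41 (SE) against Il17ra-Cre (edgeR adjusted p = 0.000492) and -2.79 ± 0.39 against Il17rc-Cre (edgeR adjusted p = 0.000438). Ifih1, which encodes MDA5, a sensor of long double-stranded RNA, had 14.9, 16.3 and 16.6 CPM in the Il17rb-Cre libraries, against 73.9, 56.6 and 48.1 CPM in the Il17ra-Cre libraries and 39.01, 62.8, 44.7 and 94.6 CPM in the Il17rc-Cre libraries. This sensor had the smallest differences of the group, -1.898 ± 0.32 (SE) against Il17ra-Cre (edgeR adjusted p = 0.00122) and -1.92 ± 0.31 against Il17rc-Cre (edgeR adjusted p = 0.000894). Dhx58, whose product LGP2 modulates MDA5 and RIG-I, had 2.403, 2.91 and 3.202 CPM in the Il17rb-Cre libraries, against 75.5, 61.6 and 23.7 CPM in the Il17ra-Cre libraries and 39.2, 33.1, 41.97 and 59.99 CPM in the Il17rc-Cre libraries. Dhx58 had a log2 fold change of -4.23 ± 0.43 (SE) against Il17ra-Cre (edgeR adjusted p = 7.72e-05) and -3.94 ± 0.41 against Il17rc-Cre (edgeR adjusted p = 7.66e-05). Eif2ak2, which encodes the translation-blocking kinase PKR, averaged 8.602 ± 1.84 CPM in Il17rb-Cre, 56.8 ± 12.5 CPM in Il17ra-Cre and 34.5 ± 6.31 CPM in Il17rc-Cre (SD, n = 3, 3 and 4), with a log2 fold change of -2.72 ± 0.25 (SE) against Il17ra-Cre (edgeR adjusted p = 4.48e-05) and -2.005 ± 0.23 against Il17rc-Cre (edgeR adjusted p = 0.000144).

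The 5 regulators were lower in Il17rb-Cre in both comparisons, by very unequal amounts, and without overlap between Il17rb-Cre and another group. Irf1, a transcription factor induced by interferon-γ through a GAS element, had 13.8, 9.93 and 15.4 CPM in the Il17rb-Cre libraries, against 1269.7, 1121 and 631 CPM in the Il17ra-Cre libraries and 132, 768, 277 and 719 CPM in the Il17rc-Cre libraries. Irf1 had a log2 fold change of -6.27 ± 0.71 (SE) against Il17ra-Cre (edgeR adjusted p = 0.000144) and -5.18 ± 0.67 against Il17rc-Cre (edgeR adjusted p = 0.000257). Irf9, the DNA-binding subunit of ISGF3, had 79.1, 65.7 and 106 CPM in the Il17rb-Cre libraries, against 218, 160.4 and 145 CPM in the Il17ra-Cre libraries and 192, 157, 176 and 214 CPM in the Il17rc-Cre libraries. The difference was far smaller than for Irf1, with a log2 fold change of -1.06 ± 0.22 (SE) against Il17ra-Cre (edgeR adjusted p = 0.00388) and -1.15 ± 0.21 against Il17rc-Cre (edgeR adjusted p = 0.00201). Irf7, which amplifies type I interferon production, had 31.9, 23.1 and 36.7 CPM in the Il17rb-Cre libraries, against 225, 258 and 151 CPM in the Il17ra-Cre libraries and 105, 136, 131 and 155 CPM in the Il17rc-Cre libraries. Irf7 had a log2 fold change of -2.79 ± 0.26 (SE) against Il17ra-Cre (edgeR adjusted p = 4.56e-05) and -2.11 ± 0.24 against Il17rc-Cre (edgeR adjusted p = 0.000124). Stat2, the ISGF3 subunit specific to type I and III signalling, had 15.7, 28.3 and 31.005 CPM in the Il17rb-Cre libraries, against 189, 163 and 76.95 CPM in the Il17ra-Cre libraries and 82.1, 94.4, 84.1 and 168 CPM in the Il17rc-Cre libraries. Stat2 had a log2 fold change of -2.51 ± 0.42 (SE) against Il17ra-Cre (edgeR adjusted p = 0.00119) and -2.099 ± 0.40 against Il17rc-Cre (edgeR adjusted p = 0.0024). Irf8, an interferon-γ-induced factor that microglia also need constitutively, averaged 2.5997 ± 0.586 CPM in Il17rb-Cre, 179 ± 30.5 CPM in Il17ra-Cre and 70.1 ± 62.4 CPM in Il17rc-Cre (SD, n = 3, 3 and 4), with a log2 fold change of -6.11 ± 0.92 (SE) against Il17ra-Cre (edgeR adjusted p = 0.000706) and -4.75 ± 0.85 against Il17rc-Cre (edgeR adjusted p = 0.00177).

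Immunity-related GTPases attack the vacuoles of intracellular pathogens in mice, with the IRGM proteins as their regulators. All 6 were lower in Il17rb-Cre in both comparisons, with a median log2 fold change of -6.13 against Il17ra-Cre and -5.26 against Il17rc-Cre. Igtp, also called Irgm3, had 53.5, 43.4 and 49.5 CPM in the Il17rb-Cre libraries, against 2651, 1774 and 1569.7 CPM in the Il17ra-Cre libraries and 229, 1838, 532 and 1975 CPM in the Il17rc-Cre libraries. Igtp had a log2 fold change of -5.36 ± 0.78 (SE) against Il17ra-Cre (edgeR adjusted p = 0.000565) and -4.55 ± 0.73 against Il17rc-Cre (edgeR adjusted p = 0.00096). Irgm1 had 73.1, 61.3 and 82.8 CPM in the Il17rb-Cre libraries, against 2291, 1768 and 1436 CPM in the Il17ra-Cre libraries and 605, 1344, 965 and 1625 CPM in the Il17rc-Cre libraries. Irgm1 had a log2 fold change of -4.66 ± 0.38 (SE) against Il17ra-Cre (edgeR adjusted p = 2.62e-05) and -3.97 ± 0.36 against Il17rc-Cre (edgeR adjusted p = 3.36e-05), the smallest of the 6. Iigp1, which encodes the vacuole-coating GTPase Irga6, had 22.8, 12.4 and 15.7 CPM in the Il17rb-Cre libraries, against 2075, 1447 and 884 CPM in the Il17ra-Cre libraries and 249.9, 1317, 440.0 and 1601 CPM in the Il17rc-Cre libraries. Iigp1 had a log2 fold change of -6.44 ± 0.79 (SE) against Il17ra-Cre (edgeR adjusted p = 0.000215) and -5.73 ± 0.75 against Il17rc-Cre (edgeR adjusted p = 0.000283). Tgtp2 had 10.4, 6.49 and 7.82 CPM in the Il17rb-Cre libraries, against 1615, 1150.5 and 717 CPM in the Il17ra-Cre libraries and 112, 1024, 253 and 1160.3 CPM in the Il17rc-Cre libraries. The Il17rc-Cre libraries of these GTPases formed a low pair, replicates 1 and 3, and a high pair, replicates 2 and 4, all above the Il17rb-Cre libraries. Tgtp2 had a log2 fold change of -7.14 ± 0.94 (SE) against Il17ra-Cre (edgeR adjusted p = 0.000335) and -6.28 ± 0.90 against Il17rc-Cre (edgeR adjusted p = 0.000471). Tgtp1 and Irgm2 had log2 fold changes of -8.59 and -5.83 against Il17ra-Cre and of -7.81 and -4.78 against Il17rc-Cre. Of the 50-base words of Tgtp1 81.2%, and of Tgtp2 86.6%, occur in another gene, nearly all in each other, so the split of counts within this pair is uncertain, and Igtp and Irgm2 overlap on the same strand of chromosome 11.

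Among the 14 other effectors, 12 were lower in Il17rb-Cre than in Il17ra-Cre and 14 lower than in Il17rc-Cre, with overlap between libraries for Mx1 and Mx2 against Il17ra-Cre alone. Bst2, which encodes tetherin, a protein that holds budding virions at the cell surface, had 51.96, 42.6 and 55.6 CPM in the Il17rb-Cre libraries, against 503, 423 and 751 CPM in the Il17ra-Cre libraries and 357, 650.2, 571 and 708 CPM in the Il17rc-Cre libraries. Bst2 had a log2 fold change of -3.48 ± 0.31 (SE) against Il17ra-Cre (edgeR adjusted p = 3.78e-05) and -3.51 ± 0.30 against Il17rc-Cre (edgeR adjusted p = 2.33e-05). Ifi27, a small interferon-induced membrane protein gene, had 105, 81.96 and 81.9 CPM in the Il17rb-Cre libraries, against 599, 588 and 411 CPM in the Il17ra-Cre libraries and 429, 328, 379 and 276 CPM in the Il17rc-Cre libraries. Ifi27 had a log2 fold change of -2.57 ± 0.23 (SE) against Il17ra-Cre (edgeR adjusted p = 3.53e-05) and -1.98 ± 0.21 against Il17rc-Cre (edgeR adjusted p = 8.59e-05). Xaf1, which encodes a partner of the apoptosis inhibitor XIAP, had 111, 57.8 and 88.7 CPM in the Il17rb-Cre libraries, against 648, 419 and 417 CPM in the Il17ra-Cre libraries and 269, 384, 305 and 459.9 CPM in the Il17rc-Cre libraries. Xaf1 had a log2 fold change of -2.53 ± 0.31 (SE) against Il17ra-Cre (edgeR adjusted p = 0.000214) and -2.04 ± 0.29 against Il17rc-Cre (edgeR adjusted p = 0.000467). Rtp4 had 53.1, 35.5 and 62.97 CPM in the Il17rb-Cre libraries, against 605, 447 and 372 CPM in the Il17ra-Cre libraries and 297, 383, 321 and 467 CPM in the Il17rc-Cre libraries. Rtp4 had a log2 fold change of -3.23 ± 0.29 (SE) against Il17ra-Cre (edgeR adjusted p = 3.78e-05) and -2.86 ± 0.27 against Il17rc-Cre (edgeR adjusted p = 4.44e-05). Of its 50-base words 11.6% occur in an overlapping gene. Of the others, the neighbours Rsad2, which encodes the antiviral radical enzyme viperin, and Cmpk2, a nucleotide kinase that supplies it with substrate, had log2 fold changes of -3.22 and -2.57 against Il17ra-Cre and of -4.27 and -2.61 against Il17rc-Cre. Parp14, an ADP-ribosyltransferase gene, had the largest difference of this group from Il17ra-Cre, -5.78 ± 0.67 (SE, edgeR adjusted p = 0.000159). Trim30a, Ifi44, Ifi35, Isg20, an exonuclease gene, and Samd9l had log2 fold changes between -4.56 and -2.74 against Il17ra-Cre and between -4.93 and -2.26 against Il17rc-Cre.

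Il17ra-Cre and Il17rc-Cre, which both had high levels of these genes, were compared with each other to ask whether the 2 groups differ. No member passed the threshold in edgeR (0 higher and 0 lower in Il17ra-Cre, where 1.32% of all genes tested were higher and 0.759% lower). In the same test 12 members had an unadjusted p under 0.05, 8 with a higher and 4 with a lower level in Il17ra-Cre. Over all genes, 3717 of the 20301 tested had an unadjusted p under 0.05 in this comparison. The members' median log2 fold change was 0.37, beside 0.032 over all genes. It was 0.088 without Il17ra-Cre replicate 1, 0.59 without Il17ra-Cre replicate 3, -0.098 without Il17ra-Cre replicates 1 and 2, and -0.026 without Il17rc-Cre replicates 1 and 3. Every Il17ra-Cre library lay below every Il17rc-Cre library for 2 members (6.65% of all genes) and above for 1, Irf8 (7.92%). Oasl1 came closest to the threshold, with 22.5, 29.9 and 21.4 CPM in Il17ra-Cre against 55.5, 44.8, 53.8 and 92.1 CPM in Il17rc-Cre and a log2 fold change of -1.32 ± 0.30 (SE, edgeR adjusted p = 0.0561). The other member without overlap was Mx2, with a log2 fold change of -1.25 ± 0.29 (SE, edgeR adjusted p = 0.0574). Both were lower in Il17ra-Cre without Il17ra-Cre replicate 3 (edgeR adjusted p = 0.0470 for Oasl1 and 0.0429 for Mx2, where 6.26% of all genes were lower), without Il17rc-Cre replicate 2 (0.0445 and 0.0388, where 1.13% of all genes were lower), with no filter (0.661% of all genes), with at least 1 CPM in 3 libraries (1.90%) and with DESeq2 (5.49%). Without Il17ra-Cre replicate 3, Eif2ak2, Ifi27 and Irf7 were higher in Il17ra-Cre (log2 fold changes 0.89, 0.75 and 0.87, edgeR adjusted p = 0.0253, 0.0279 and 0.0239), where 7.20% of all genes were. With limma's voom and sample quality weights 20 members were higher and 3 lower, where 13.2% of all genes were higher and 8.98% lower, so the count depends on the test.

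The Il17rc-Cre libraries differed from each other more for some members than for others. For the 9 members listed as typical of interferon-γ (Irf1, Irf8, Ubd, Igtp, Irgm1, Irgm2, Iigp1, Tgtp1 and Tgtp2), replicates 1 and 3 lay below replicates 2 and 4 in 9 of 9, and the highest library exceeded the lowest by a median of 8.61-fold. For the 18 members listed as typical of type I interferon, that order held for 6 of 18, and the median spread was 2.08-fold. Irf1, for example, had 132, 768, 277 and 719 CPM in Il17rc-Cre replicates 1 to 4, whereas Oasl2 had 830.0, 739, 854 and 1082 CPM in the same libraries. The spread of the interferon-γ list was 2.01-fold in Il17ra-Cre and 1.56-fold in Il17rb-Cre. These lists were drawn up with the data known and are a description, without a test. The share of all genes with replicates 1 and 3 below replicates 2 and 4 was not computed. The split reached beyond these lists. Over all genes, the chi-square per degree of freedom between the counts of replicates 1 and 3 was 39.9. Between replicates 2 and 4 it was 121.4. Between replicate 1 or 3 and replicate 2 or 4 it was 218.5 to 303.1. The measure grows with read depth, which differed between the libraries.

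**Figure D3:**
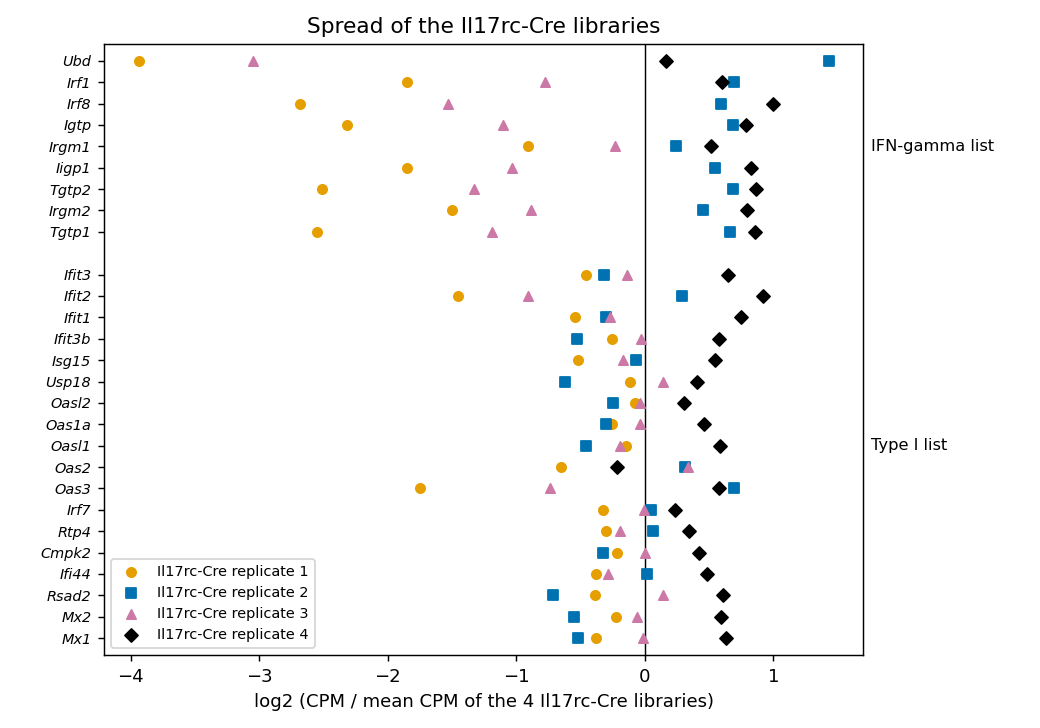
Level of each member of the 2 lists in the 4 Il17rc-Cre libraries, as log2 of CPM over the mean CPM of the group (1 symbol per library). For the 9 genes of the interferon-γ list replicates 1 and 3 lie left of replicates 2 and 4, and for the 18 genes of the type I list replicate 4 is highest in 16.

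Set against each other, the summed levels of the 2 lists had a ratio (type I over interferon-γ) of 4.33, 4.08 and 5.34 in the Il17rb-Cre libraries, against 0.958, 0.902 and 0.877 in the Il17ra-Cre libraries and 3.91, 0.900, 2.50 and 1.40 in the Il17rc-Cre libraries. Il17ra-Cre libraries were alike in this ratio even where their sums differed, and Il17rc-Cre replicate 2 had an Il17ra-Cre-like value while replicate 1 came near the Il17rb-Cre values. The interferon-γ list made up 12.9%, 13.4% and 11.3% of the members' summed CPM in the Il17rb-Cre libraries, against 44.1%, 44.9% and 43.7% in the Il17ra-Cre libraries and 16.3%, 44.8%, 23.4% and 36.2% in the Il17rc-Cre libraries. In the Il17rb-Cre comparisons the median log2 fold change of the interferon-γ list was -6.27 against Il17ra-Cre and -5.18 against Il17rc-Cre, and that of the type I list was -3.19 and -2.998. Whether the 2 lists differ was not tested. Between Il17ra-Cre and Il17rc-Cre the interferon-γ list had a median of 0.86, with 9 of 9 values above 0, and the type I list -0.066, with 8 of 18 above 0. With Il17rc-Cre replicates 1 and 3 left out, the interferon-γ list had a median of 0.26, with 7 of 9 above 0, and the type I list -0.22, with 5 of 18 above 0. With Il17ra-Cre replicates 1 and 2 left out, the medians were 0.17, with 7 of 9 above 0, and -0.68, with 3 of 18 above 0.

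**Figure D4:**
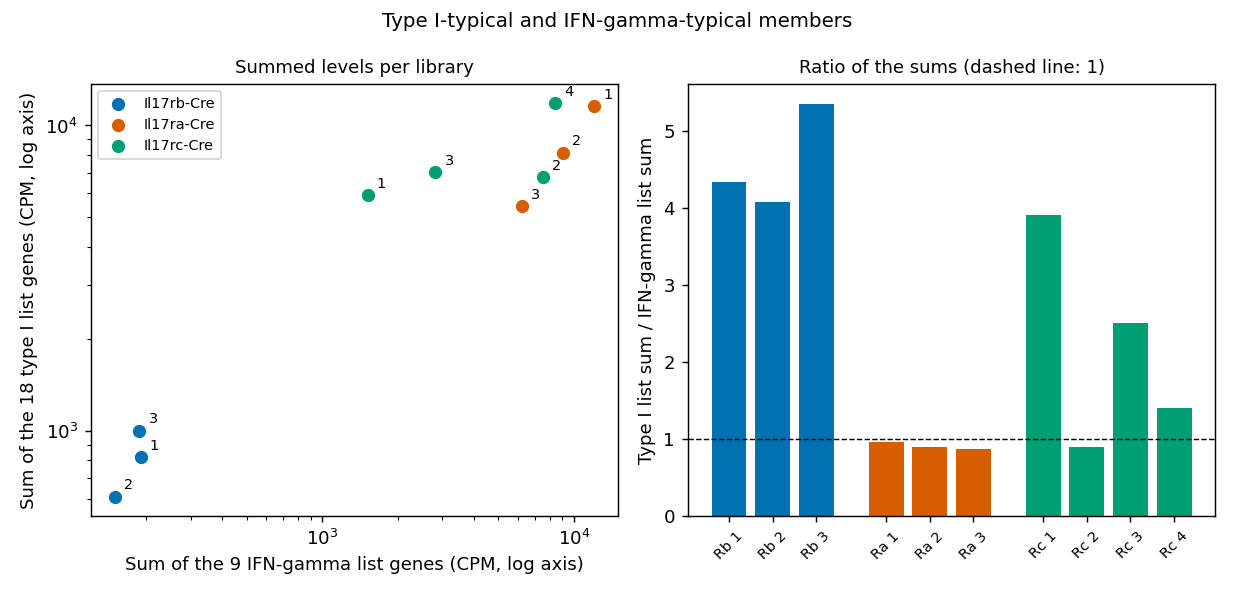
Left, summed CPM of the 18 type I list genes against that of the 9 interferon-γ list genes, both on log axes, 1 point per library with its replicate number. Right, the ratio of the sums per library; the Il17rb-Cre bars lie between 4.08 and 5.34, the Il17ra-Cre bars between 0.877 and 0.958, and the Il17rc-Cre bars between 0.900 and 3.91.

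Few interferon transcripts were captured. Of 21 ligand genes, 4 passed the filter. Ifnb1, the interferon-β gene, had 11, 0 and 0 reads in the Il17rb-Cre libraries, against 0, 0 and 27 reads in the Il17ra-Cre libraries and 76, 364, 85 and 521 reads in the Il17rc-Cre libraries. In CPM the Il17rc-Cre libraries had 1.56, 5.04, 1.13 and 7.38 of Ifnb1, and Il17rb-Cre was lower, with a log2 fold change of -5.85 ± 1.68 (SE, edgeR adjusted p = 0.0199). That call was lost without Il17rb-Cre replicate 2 or 3 (edgeR adjusted p = 0.0576 and 0.0579) and under both replicate blocks (0.0811 and 0.0597). Against Il17rc-Cre, Ifnb1 in Il17ra-Cre had a log2 fold change of -5.73 ± 1.64 (SE, edgeR adjusted p = 0.0977), which did not pass, although each Il17ra-Cre library lay below each Il17rc-Cre library. Ifna4 had 0 reads in each Il17rb-Cre library, against 6, 0 and 0 reads in Il17ra-Cre and 4, 68, 23 and 161 reads in Il17rc-Cre. Ifna2 had 0 in each Il17rb-Cre library, against 6, 0 and 0 in Il17ra-Cre and 7, 41, 20 and 81 in Il17rc-Cre. Both passed for Il17rb-Cre against Il17rc-Cre (edgeR adjusted p = 0.0249 for each), lost the call without any of the 3 Il17rb-Cre libraries, and belong to a family of close copies. Ifna1 and Ifna5 had 25 and 36 reads in Il17rc-Cre replicate 4 and 0 elsewhere. Ifng, the interferon-γ gene, had 5, 0 and 0 reads in the Il17rb-Cre libraries, against 8, 47 and 143 reads in the Il17ra-Cre libraries and 0, 49, 0 and 0 reads in the Il17rc-Cre libraries, and passed in no comparison in edgeR. Ifnk and Ifnl2 had 19 and 12 reads in Il17ra-Cre replicate 3 and 0 elsewhere.

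Receptor subunits for both interferon types were detected in every library. Ifnar1 had 7.06, 14.5 and 12.2 CPM in the Il17rb-Cre libraries, against 22.4, 30.2 and 15.3 CPM in the Il17ra-Cre libraries and 21.5, 25.8, 23.5 and 19.4 CPM in the Il17rc-Cre libraries. Ifnar1 had a log2 fold change of -1.01 ± 0.31 (SE) against Il17ra-Cre (edgeR adjusted p = 0.0254) and -1.004 ± 0.29 against Il17rc-Cre (edgeR adjusted p = 0.021). Against Il17ra-Cre it missed the threshold when Il17ra-Cre replicate 1 or 2 or Il17rb-Cre replicate 1 or 3 was left out (edgeR adjusted p = 0.0598, 0.107, 0.0774 and 0.0561), and against Il17rc-Cre when Il17rb-Cre replicate 1 was (0.0571). Leaving out Il17rc-Cre replicates 1 and 3 ended both calls of Ifnar1 (edgeR adjusted p = 0.0551 and 0.0735). Ifnar2 had 8.296, 8.84 and 7.19 CPM in the Il17rb-Cre libraries, against 49.4, 46.4 and 45.8 CPM in the Il17ra-Cre libraries and 19.3, 53.2, 28.7 and 39.6 CPM in the Il17rc-Cre libraries. Ifnar2 had a log2 fold change of -2.54 ± 0.32 (SE) against Il17ra-Cre (edgeR adjusted p = 0.00028) and -2.12 ± 0.31 against Il17rc-Cre (edgeR adjusted p = 0.000529). Ifngr1 had 6.98, 5.14 and 5.16 CPM in the Il17rb-Cre libraries, against 36.7, 38.5 and 14.97 CPM in the Il17ra-Cre libraries and 14.5, 32.2, 23.4 and 26.4 CPM in the Il17rc-Cre libraries. Ifngr1 had a log2 fold change of -2.38 ± 0.40 (SE) against Il17ra-Cre (edgeR adjusted p = 0.00117) and -2.07 ± 0.38 against Il17rc-Cre (edgeR adjusted p = 0.00193). Ifngr2 had 61.8, 84.9 and 73.6 CPM in the Il17rb-Cre libraries, against 29.9, 67.8 and 51.5 CPM in the Il17ra-Cre libraries and 54.9, 69.8, 65.03 and 49.8 CPM in the Il17rc-Cre libraries. Ifngr2 libraries overlapped between groups, with log2 fold changes of 0.56 ± 0.27 (SE, edgeR adjusted p = 0.127) and 0.29 ± 0.25 (SE, edgeR adjusted p = 0.386) against Il17ra-Cre and Il17rc-Cre.

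Of the 10 JAK-STAT genes outside the members, 8 were lower in Il17rb-Cre than in Il17ra-Cre and 5 lower than in Il17rc-Cre, and 0 were higher in either. In these comparisons 24.1% and 21.7% of all genes tested were lower. The median log2 fold change of the 10 was -1.53 against Il17ra-Cre and -0.97 against Il17rc-Cre. The smallest p-values were those of Socs3, a feedback inhibitor of cytokine receptors, with log2 fold changes of -4.96 ± 0.39 (SE) against Il17ra-Cre (edgeR adjusted p = 1.83e-05) and -4.21 ± 0.37 against Il17rc-Cre (edgeR adjusted p = 2.5e-05). Stat3, which relays interleukin-6-type signals, was next, at -3.34 ± 0.32 (SE) against Il17ra-Cre (edgeR adjusted p = 5.79e-05) and -2.95 ± 0.31 against Il17rc-Cre (edgeR adjusted p = 7.07e-05). Of 11 tested genes that act before interferon is made, 8 were lower in Il17rb-Cre in each comparison. Mavs, the mitochondrial adaptor of RIG-I and MDA5, had 0.845, 0.894 and 1.22 CPM in the Il17rb-Cre libraries, against 49.98, 44.4 and 26.6 CPM in the Il17ra-Cre libraries and 39.7, 39.5, 32.2 and 42.5 CPM in the Il17rc-Cre libraries. Tlr3, an endosomal receptor for double-stranded RNA, differed by -4.56 ± 0.34 (SE) against Il17ra-Cre (edgeR adjusted p = 1.44e-05) and -5.37 ± 0.34 against Il17rc-Cre (edgeR adjusted p = 4.29e-06). Irf3, the factor that starts interferon transcription, differed by -2.38 ± 0.19 (SE) against Il17ra-Cre (edgeR adjusted p = 1.89e-05) and -2.198 ± 0.18 against Il17rc-Cre (edgeR adjusted p = 1.66e-05). Of 28 tested interferon-stimulated genes outside the 43, 26 were lower in each Il17rb-Cre comparison, with medians of -4.45 against Il17ra-Cre and -4.44 against Il17rc-Cre. Ifitm3, a membrane protein that blocks virus entry, had 36.2, 27.01 and 32.8 CPM in the Il17rb-Cre libraries, against 1015, 832 and 1231 CPM in the Il17ra-Cre libraries and 1282, 1881, 1670.5 and 1904 CPM in the Il17rc-Cre libraries. Lgals3bp had log2 fold changes of -3.95 ± 0.29 (SE) against Il17ra-Cre (edgeR adjusted p = 1.5e-05) and -4.37 ± 0.29 against Il17rc-Cre (edgeR adjusted p = 5.82e-06).

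Markers of several cell types moved together with the members. The 14 microglia and macrophage markers summed to 25.96, 30.04 and 30.8 CPM in the Il17rb-Cre libraries, against 851, 1299.8 and 730.1 CPM in the Il17ra-Cre libraries and 44.2, 221, 51.5 and 116 CPM in the Il17rc-Cre libraries. In Il17rb-Cre 14 of 14 were lower than in Il17ra-Cre and 9 of 14 lower than in Il17rc-Cre, and Itgam, Ptprc and Mrc1 had 0 reads in each of its libraries. Of all genes tested, 24.1% were lower in Il17rb-Cre than in Il17ra-Cre and 21.7% lower than in Il17rc-Cre. These shares also stand beside the marker counts that follow. The 12 astrocyte markers summed to 665, 659.9 and 679 CPM in Il17rb-Cre, against 13997, 13294 and 7107 CPM in Il17ra-Cre and 17639, 11698, 18382 and 13857 CPM in Il17rc-Cre, and 12 of 12 were lower in Il17rb-Cre in both comparisons. Oligodendrocyte markers summed to 1181, 1022 and 1129 CPM in Il17rb-Cre, against 45223, 30934 and 5397 CPM in Il17ra-Cre and 1239, 4002, 1047 and 2464 CPM in Il17rc-Cre. Of these 10 markers, 10 were lower in Il17rb-Cre than in Il17ra-Cre, but only 1 was lower than in Il17rc-Cre. Excitatory neuron markers went the other way, with sums of 20924, 17851 and 17958 CPM in Il17rb-Cre, against 1584, 1812 and 6735 CPM in Il17ra-Cre and 3322, 2189.7, 3608 and 2313 CPM in Il17rc-Cre. All 3 groups held neuronal and glial transcripts, as the tissue label has it. The library sums of the 10 endothelial markers ranged between 16.9 and 23.5 CPM in Il17rb-Cre, 85.7 and 487 CPM in Il17ra-Cre, and 123 and 291 CPM in Il17rc-Cre. Of these markers, 4 of 10 were lower in Il17rb-Cre than in Il17ra-Cre and 7 of 10 lower than in Il17rc-Cre. Ly6c1 held most of the endothelial marker reads in Il17ra-Cre replicates 1 and 2 (13021 and 8378), with Slc2a1 next (3644 and 3105). In Il17ra-Cre replicate 3 they had 6331 and 6629 reads. The sums of the mural and fibroblast markers ranged between 4.32 and 9.65 CPM in Il17rb-Cre, 127 and 203 CPM in Il17ra-Cre, and 494 and 1061 CPM in Il17rc-Cre.

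Lymphocyte markers were low. Cd3e, Cd8a and Ncr1 had 0 reads in each Il17rb-Cre library, and Ncr1 had 0 in each Il17rc-Cre library. The list's sums were 111, 123 and 73.6 CPM in Il17rb-Cre, against 23.2, 54.2 and 62.8 CPM in Il17ra-Cre and 31.98, 23.5, 47.9 and 30.1 CPM in Il17rc-Cre, and Trbc2, a T cell receptor constant gene, made up most of them in Il17rb-Cre. Nkg7, a gene of cytotoxic lymphocytes singled out after its values were seen, had 0, 0.294 and 0.129 CPM in the Il17rb-Cre libraries, against 10.3, 19.8 and 7.03 CPM in the Il17ra-Cre libraries and 0.0412, 5.19, 0 and 3.48 CPM in the Il17rc-Cre libraries. Within Il17rc-Cre, Nkg7 and the sums of the microglia, oligodendrocyte and oligodendrocyte precursor markers were higher in replicates 2 and 4 than in replicates 1 and 3, as the interferon-γ list was. The precursor sums were 613, 693, 689.9 and 721 CPM in replicates 1 to 4. The astrocyte and excitatory neuron sums were lower in replicates 2 and 4. So was the sum of the lymphocyte list, to which Nkg7 belongs. Rpl10a, the gene of the ribosomal protein used as the tag, had 602 to 669.6 CPM in Il17rb-Cre, 58.7, 70.9 and 679 CPM in Il17ra-Cre, and 191 to 267 CPM in Il17rc-Cre. The part of cell type composition, and of the tag, in the differences of the interferon-stimulated genes was not tested, and the design confounds composition with the Cre line, so the 2 cannot be told apart.

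**Figure D5:**
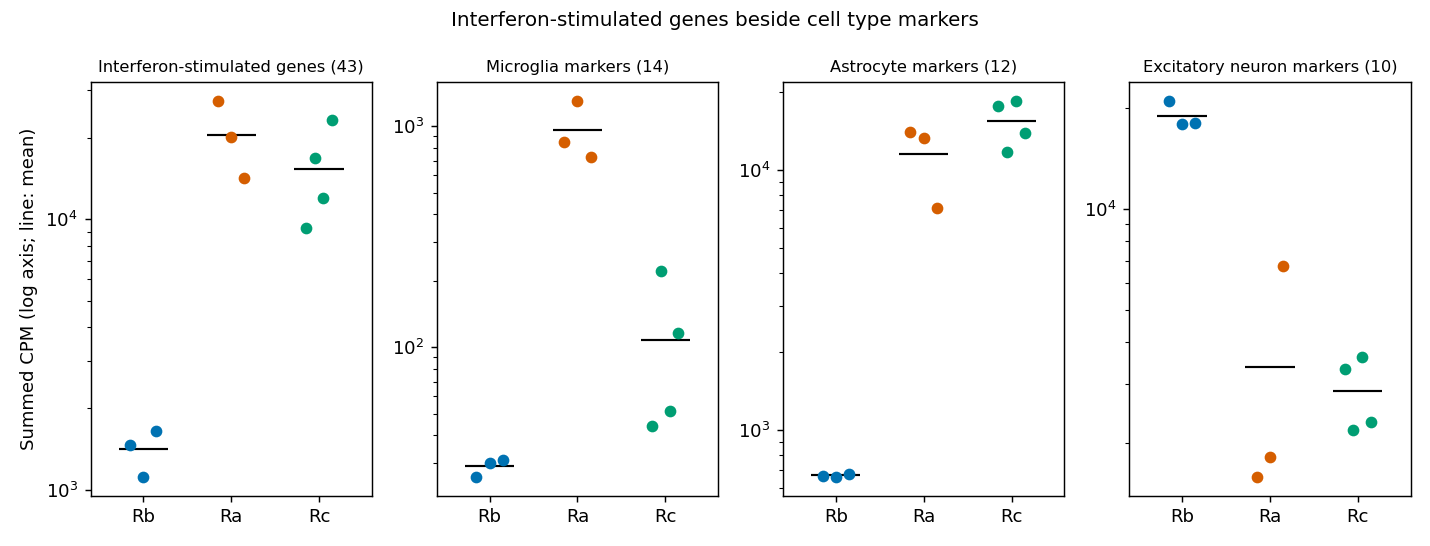
Summed CPM on a log axis of the 43 interferon-stimulated genes and of 3 marker lists, 1 point per library with the group mean as a line, in Il17rb-Cre (Rb), Il17ra-Cre (Ra) and Il17rc-Cre (Rc). The members, microglia and astrocyte markers are lowest in Il17rb-Cre, and excitatory neuron markers are highest there.

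The counts of calls were also taken with libraries left out on either side of each split within a group. Without Il17ra-Cre replicate 3, 40 of 43 members were lower in Il17rb-Cre than in Il17ra-Cre, where 25.9% of all genes were. Without Il17ra-Cre replicates 1 and 2, which leaves 1 library in that group that is assumed to vary like the others, 38 of 43 members were lower in Il17rb-Cre than in Il17ra-Cre, where 11.9% of all genes were. The 5 others were Mx1, Mx2, Irf9, Oas2 and Oas3, and Oas1b passed (edgeR adjusted p = 0.0303). With Il17rc-Cre replicates 1 and 3 removed, 42 of 43 members were lower in Il17rb-Cre than in Il17rc-Cre, where 17.9% of all genes were, and Oas2 was the exception (-1.98, edgeR adjusted p = 0.0636).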

How the data were processed

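TRAP RNA of 10 libraries was sequenced after SMART-Seq v4 preparation, which does not mark the strand. The deposited values are raw counts per Ensembl gene in 1 table, aligned with STAR 2.7.5c to GRCm38 per the submitters' processing notes; the counting step is not given in the sources used here. Symbols and overlaps came from GENCODE M21, and all 55536 identifiers matched. Genes with low counts were removed (filterByExpr, 20301 kept). The test was edgeR 4.0.16's quasi-likelihood test (R 4.3.3) on the deposited counts, with TMM scaling, group as the only term, 1 model over the 10 libraries, and p-values adjusted by Benjamini-Hochberg over all genes tested; SE is the fold change over the square root of F. The code was tested on simulated data. Alternatives were DESeq2 1.42.0, limma 3.58.1, other scalings, filters, replicate blocks and libraries left out. Totals were 39692925 to 165844244 counts per library, so that counting error is small beside the spread between libraries for all but the lowest genes. Reads of overlapping or antisense genes cannot be told apart.

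The members and all lists were chosen with earlier results of these data known. Per role, the 4 members with the highest mean CPM get a value in every library; outside the members, the 4 receptor genes, ligands with at least 10 reads, and up to 3 genes per pathway list with the smallest p are named, with markers at 0 in a whole group. Some genes that this rule names are not reported here.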

Additional observations from a re-analysis of the deposited data

Results flagged for a closer look

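In the group of 4 Il17rc-Cre libraries, replicate 4 stood apart above the others for 4 of 43 members. The gap to the next library, as a share of the group's range, was 0.856 for Ifit1, 0.858 for Stat2, 0.898 for Ddx58 and 0.914 for Trim30a, above Dixon's 95% critical value for 4 samples. Chance gives such a value in about 1 in 20 groups, and the 4 members share the same libraries. Replicate 4 was the highest Il17rc-Cre library for 38 of 43 members. How often it was highest, or stood apart, over all genes was not computed, so neither count can be called particular to the members. Ifit1 had 583, 691, 704 and 1429 CPM in Il17rc-Cre replicates 1 to 4, Stat2 82.1, 94.4, 84.1 and 168, Ddx58 76.5, 76.4, 80.9 and 121 and Trim30a 122, 118, 128 and 239 CPM.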

How the results depend on the processing

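Over the alternatives, 38 to 42 of 43 members were lower in Il17rb-Cre than in Il17ra-Cre and 40 to 43 lower than in Il17rc-Cre, with 0 higher; leaving out 1 library at a time gave 40 to 41 and 41 to 43. In Il17ra-Cre against Il17rc-Cre, leaving out 1 library gave 0 to 3 members higher and 0 to 2 lower. There, 2 members were lower with no filter, 2 with at least 1 CPM in 3 libraries and 2 with DESeq2 (5.49% of all genes lower, 4.79% higher), and 20 were higher and 3 lower with limma's voom and quality weights (13.2% of all genes higher, 8.98% lower). In that comparison the fold change changed sign for 14 of 43 members without Il17ra-Cre replicates 1 and 2, for 7 without Il17rc-Cre replicates 1 and 3 and for 0 to 6 under each other alternative, with 0 past the threshold; among the 14 were Ifit2 (-0.81), Oas2 (-0.098) and Ubd (-0.28), and the cause was not tested. In the Il17rb-Cre comparisons 0 changed sign. Upper quartile scaling moved the median of all genes from -0.092 to 0.041 in Il17rb-Cre against Il17ra-Cre, that of the members to -3.08, and the median of all genes against Il17rc-Cre from 0.023 to 0.127. With DESeq2 size factors 178 genes of all were higher and 199 lower in Il17ra-Cre than in Il17rc-Cre, beside 267 and 154. Of the single-gene values followed under alternatives, 2499 kept their side of the threshold, 45 lost it, 31 gained it and 3 changed sign. In Il17ra-Cre against Il17rc-Cre only members with an absolute log2 fold change of at least 1 were followed. Gains of the other members there are therefore not in these counts. Genes outside the members were followed only where they passed in the fit of all libraries. Same-numbered libraries of different groups correlated by -0.083 to 0.181 in their deviations from the group means. Differently numbered libraries were not correlated, so these values cannot show whether the numbers pair the libraries. With the replicate block by title number, 41 members were lower in Il17rb-Cre than in Il17ra-Cre and 40 lower than in Il17rc-Cre; with the block by library name, 40 and 42; and 0 passed between Il17ra-Cre and Il17rc-Cre.

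Depth did not limit most members; low counts limit Ubd in Il17rb-Cre (9, 0 and 5 reads) and the ligand genes. In Il17ra-Cre against Il17rc-Cre, missing the threshold does not show that the groups are alike.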
